A study of Mus musculus with 16 samples.

Results

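Endothelial cells line the vessels of the heart, and 10 genes that mark them and their capillaries are described here, out of 22372 protein-coding genes in the deposited table. The 10 genes were picked by name and not by their values, though earlier results of these data were known. They are Pecam1, Cdh5, Vwf, Emcn, Egfl7, Fabp4, Gpihbp1, Aqp1, Nos3 and Eng. The RNA came from a piece of the heart ventricles of male C57BL/6J mice that were 10 to 12 weeks old when the experiment began. In transverse aortic constriction (TAC) a suture narrows the aortic arch and the left ventricle pumps against a raised pressure, whereas the sham operation leaves the suture out. Mice of both surgeries were given THZ1 at 10 mg/kg b.i.d. into the peritoneum, from the first day to day 60 after surgery, or its vehicle. THZ1 is a covalent inhibitor of Cdk7, Cdk12 and Cdk13, kinases of the RNA polymerase II transcription cycle. Vehicle-treated mice form the groups Sham-Veh and TAC-Veh and drug-treated mice the groups Sham-THZ1 and TAC-THZ1, with 4 mice and 4 libraries in each. All mice had thoracotomy and were of 1 strain, the drug was given systemically, and each library holds the RNA of all cell types of the tissue piece.

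The endothelium is a sheet of cells held together by adherens junctions, whose cadherin is Cdh5, and by the adhesion molecule Pecam1. It secretes Vwf, which tethers platelets, makes nitric oxide with Nos3, and carries Eng, a co-receptor for ligands of the TGF-beta and BMP family. In the heart its capillaries move fatty acids to cardiomyocytes, a task in which Gpihbp1 holds lipoprotein lipase at the capillary wall and Fabp4 binds fatty acids inside the cell. ETS transcription factors, such as Erg, Fli1 and Ets1, are known regulators of many endothelial genes.

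RefSeq promoter windows, which run from 250 bases before to 50 bases after a start site on GRCm38.p6, were at hand for 4 of the 10 genes, namely Egfl7, Eng, Emcn and Aqp1. The windows of Eng and Emcn are printed since with TAC under THZ1 Eng was lower and Emcn higher. Capitals mark AGGAAG, a common form of the ETS core, on either strand (CTTCCT on the other), and the windows are on the plus strand at chr2:32646345-32646644 for Eng and at chr3:137340828-137341127 for Emcn.
Eng: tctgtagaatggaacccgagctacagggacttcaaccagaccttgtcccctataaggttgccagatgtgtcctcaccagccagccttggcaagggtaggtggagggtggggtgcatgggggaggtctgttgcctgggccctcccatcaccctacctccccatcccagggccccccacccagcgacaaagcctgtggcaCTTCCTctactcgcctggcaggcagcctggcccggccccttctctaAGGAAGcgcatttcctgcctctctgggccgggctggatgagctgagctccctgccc
Emcn: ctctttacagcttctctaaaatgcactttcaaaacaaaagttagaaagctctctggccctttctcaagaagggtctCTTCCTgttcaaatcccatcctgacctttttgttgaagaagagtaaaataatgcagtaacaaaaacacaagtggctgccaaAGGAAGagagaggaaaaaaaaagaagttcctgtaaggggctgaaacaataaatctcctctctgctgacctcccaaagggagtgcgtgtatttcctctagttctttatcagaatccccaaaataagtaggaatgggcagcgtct
Both windows held AGGAAG 2 times and neither held CGGAAG, the other form searched. Aqp1 had 1 match to AGGAAG, and the 3 start sites of Egfl7 had 3, 2 and 0. Of 32851 promoter windows of the same length, 35.4% held AGGAAG, 16.9% held CGGAAG and 46.5% held either, so a match in a window is common.

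The libraries held 21.4 to 35.8 M (mega) reads in protein-coding genes (median 28.2 M), recovered as whole reads from the normalized counts. Every one of the 10 genes had at least 599 reads in each library, and all passed the filter of 10 normalized counts in at least 4 libraries, which left 13331 genes for the test with limma. In all comparisons a gene is called higher or lower at a Benjamini-Hochberg adjusted p under 0.05 over these 13331 genes, and a fold change is a difference of group means of log2(normalized count + 1). TAC-Veh replicate 1 stood apart from its group. It had the highest value of the 4 TAC-Veh libraries for 8 of the 10 genes, and values without it are given for the genes it moved most.

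Levels were compared between genes per kb of exon (kilobase). In Sham-Veh, Fabp4 was the most abundant of the 10, at 27349 ± 2274 normalized counts per kb (SD, n = 4), ahead of Aqp1 at 2726 ± 126. Gpihbp1 followed at 1665 ± 50.3 and Cdh5 at 1404 ± 153, and the libraries of these neighbours overlapped. Eng had 978 ± 53.8 and Pecam1 942 ± 42.6, again with overlap, and Egfl7 had 572 ± 28.7. Emcn with 220 ± 19.6 and Nos3 with 216 ± 12.0 overlapped as well, and Vwf was lowest at 66.1 ± 6.97. The markers of an endothelial cell were thus all well above the filter in every group. Fabp4 is also a gene of fat cells. The 7 adipocyte markers read (Adipoq, Plin1, Cidec, Cfd, Retn, Lep and Adrb3) summed to between 4 and 43 normalized counts in a library. Lep and Adrb3 were each at 0 in 12 of the 16 libraries, and 1 of the 7 passed the filter. The part of fat cells in the Fabp4 values was not tested.

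Pressure overload was read from TAC-Veh against Sham-Veh. Egfl7, a matrix protein that endothelial cells secrete, and the sialomucin Emcn were higher in TAC-Veh, and the junctional Cdh5 was lower. These 3 of the 10 genes (2 higher, 1 lower) compare with 45% called among all genes tested (21.4% higher, 23.6% lower). In 1 gene, Egfl7, the values of both groups did not overlap, as for 37.3% of all genes. The median log2 fold change of the 10 was 0.22, against -0.003 for all genes.

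Under THZ1 in constricted hearts (TAC-THZ1 against TAC-Veh), the adhesion genes Pecam1 and Cdh5 fell and Emcn rose. That is 3 of the 10 (1 higher, 2 lower), against 29.4% called among all genes (15.1% higher, 14.2% lower). In a fit of these groups alone the adjusted p was 0.0912 for Pecam1, 0.0901 for Cdh5 and 0.085 for Emcn, so that 0 were called. All TAC-THZ1 libraries lay below all TAC-Veh libraries for Cdh5 and above them for Emcn, which makes 2 genes without overlap, against 20% of all genes. The median of the 10 was -0.28, against 0.01 for all genes. TAC-Veh is in this comparison and in the one above, so directions in one are not independent of the other.

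In sham hearts (Sham-THZ1 against Sham-Veh) limma called 0 of the 10 genes, against 0.0675% of all genes. At an unadjusted p under 0.05 there was 1, Eng, against 6.88% of all genes, edgeR also called 0 and DESeq2 called Eng. Eng and Gpihbp1 were the 2 genes whose groups did not overlap, against 11.3% of all genes. The median of the 10 was 0.11, against 0.0026 for all genes.

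With constriction in drug-treated mice (TAC-THZ1 against Sham-THZ1), Cdh5 and Eng were lower and Emcn and Egfl7 higher. These 4 genes were called against 24.2% of all genes (11.4% higher, 12.8% lower), and they were the same 4 whose groups did not overlap, against 33.4% of all genes. The effect of THZ1 itself was more negative in TAC than in sham for Pecam1 and Eng, the 2 of 10 genes called for the interaction, against 10% of all genes (4.4% with a more positive and 5.62% with a more negative interaction). Fold changes and intervals for all 10 genes are drawn next to their values by library.

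**Figure D1:**
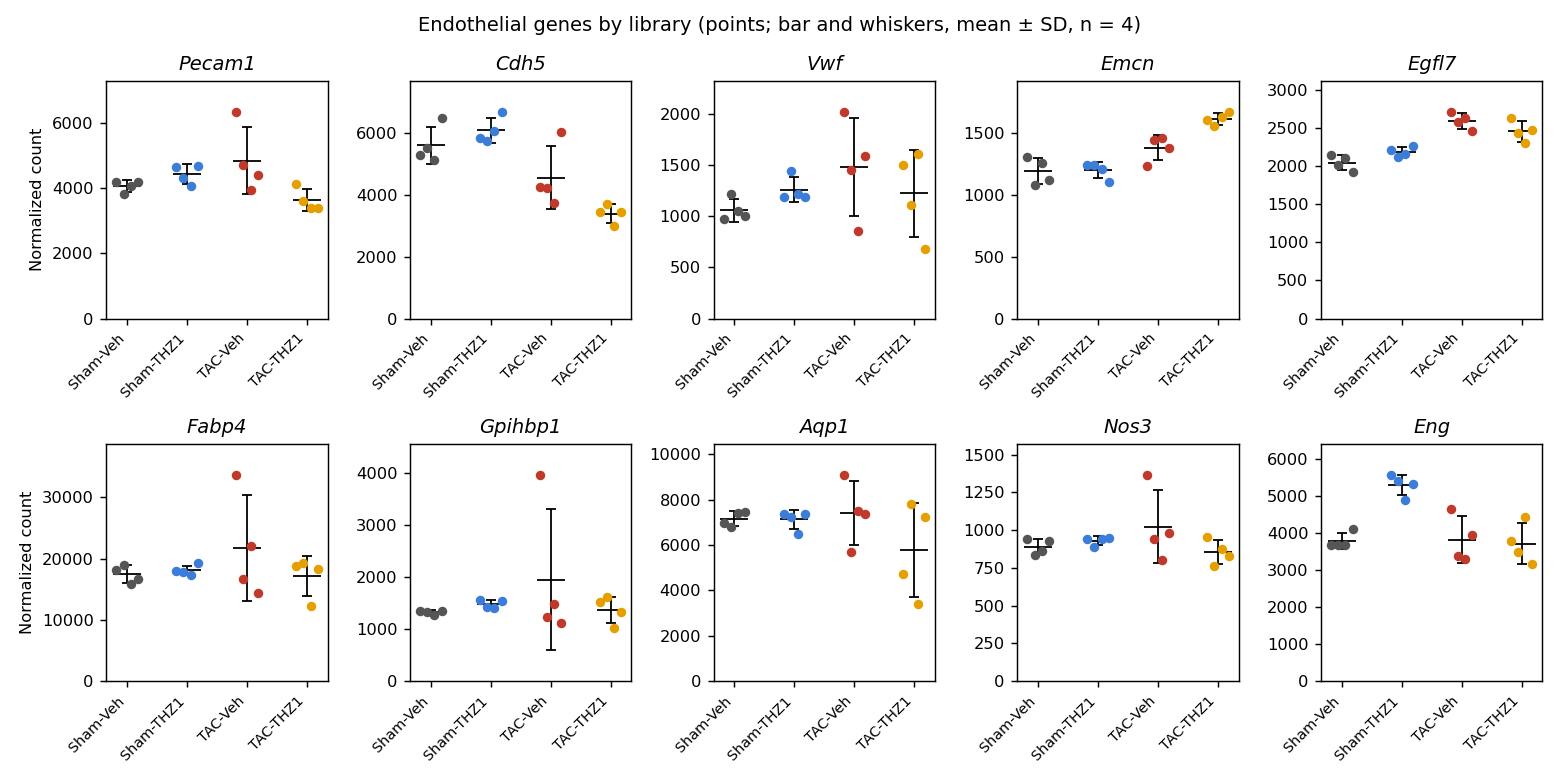
Normalized counts (y axis, from 0) of the 10 endothelial genes in each of 4 libraries per group, with the mean and SD (n = 4). Cdh5 is lowest and Emcn highest in TAC-THZ1, Eng is highest in Sham-THZ1, and TAC-Veh replicate 1 stands above the other TAC-Veh libraries for Fabp4 (33666) and Gpihbp1 (3973).

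**Figure D2:**
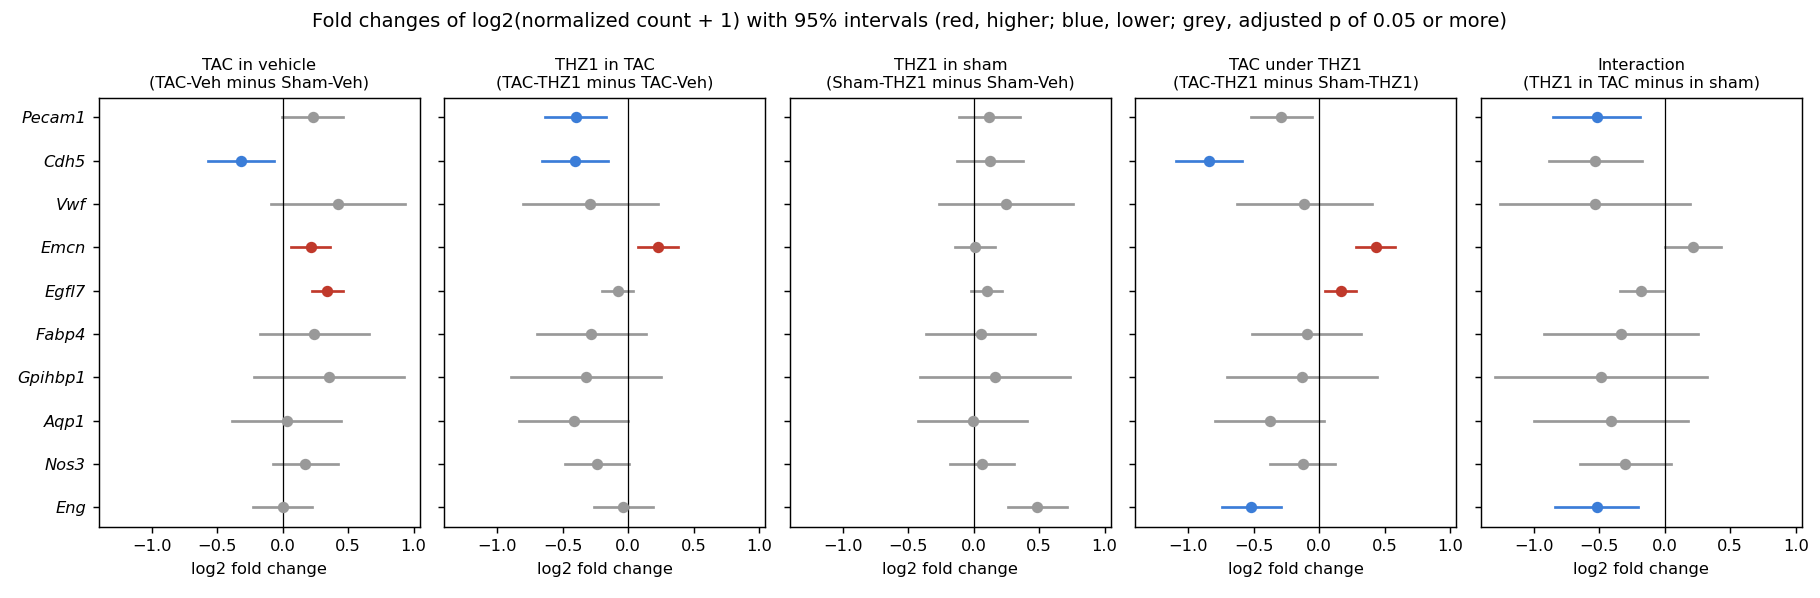
Difference of group means on the log2(normalized count + 1) scale (x axis) for each gene in 5 comparisons, with 95% intervals from limma and colour for an adjusted p under 0.05. Cdh5 reaches -0.84 with TAC under THZ1 and Emcn 0.43, while the intervals of Vwf and Gpihbp1 are wide and span 0 in every comparison.

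Cdh5 (ENSMUSG00000031871, NCBIM37 chromosome 8, 106625525 to 106668402) encodes VE-cadherin, the cadherin of endothelial adherens junctions. Its normalized counts were 5278, 5498, 5121 and 6481 in Sham-Veh, 5838, 5739, 6054 and 6674 in Sham-THZ1, 4236, 4202, 3744 and 6031 in TAC-Veh, and 3437, 3699, 2977 and 3441 in TAC-THZ1. The TAC-THZ1 libraries were the 4 lowest of the 16, and TAC-Veh replicate 4 lay among the sham values. Cdh5 changed with TAC by -0.32 (SE 0.12, adjusted p 0.0399) and with THZ1 in TAC by -0.41 (SE 0.12, adjusted p 0.0175). Between TAC-THZ1 and Sham-THZ1 the difference was -0.84 (SE 0.12, adjusted p 5.26e-04), which is 0.557 of the Sham-THZ1 level. In sham mice the drug effect was 0.12 (95% interval -0.13 to 0.37, adjusted p 0.929), and the interaction of -0.53 had an adjusted p of 0.0549. The interaction was called by DESeq2 (0.0246), with array weights (0.0303), with the replicate block (0.0235) and without Sham-Veh replicate 4 or TAC-Veh replicate 1, 3 or 4 (0.0159 to 0.0499). The call with TAC was lost without Sham-Veh replicate 2 or 4 (adjusted p 0.0679 and 0.134) or TAC-Veh replicate 1, 2 or 3 (0.081, 0.0932 and 0.128) and under 7 other alternatives. The call with THZ1 in TAC was lost without TAC-THZ1 replicate 3 (0.0519) and was -0.26 without TAC-Veh replicate 4, and that of TAC under THZ1 was kept in all 29 alternatives.

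Pecam1 (ENSMUSG00000020717, chromosome 11, 106515531 to 106611942), which encodes CD31, had 4189, 3804, 4059 and 4198 normalized counts in Sham-Veh and 4658, 4309, 4046 and 4667 in Sham-THZ1. It had 6328, 4706, 3929 and 4404 in TAC-Veh and 4108, 3599, 3401 and 3385 in TAC-THZ1. Groups overlapped in every comparison, and TAC-Veh replicate 1 was the highest library. Pecam1 was lower with THZ1 in TAC by -0.40 (SE 0.11, adjusted p 0.0128), and this call held without each single library, and its value was -0.26 without TAC-Veh replicate 1. With TAC it had 0.23 (95% interval -0.0025 to 0.46, adjusted p 0.0992), a difference that was called without TAC-Veh replicate 3 (adjusted p 0.0205) and was 0.095 (adjusted p 0.358) without TAC-Veh replicate 1. With TAC under THZ1 it had -0.29 (adjusted p 0.0665), which was called lower in a fit of those groups alone (0.0107), with array weights (0.0036), with the replicate block (0.0317) and without TAC-Veh replicate 1 or 3 (0.00847 and 0.0409). The drug effect of 0.12 in sham and the one in TAC differed by -0.52 (SE 0.16, adjusted p 0.0447). That interaction was kept without TAC-Veh replicate 1, 3 or 4 or TAC-THZ1 replicate 1 and lost without any of the other 12 libraries, at adjusted p-values of 0.0513 to 0.0923. Pecam1 and Cdh5 thus fell by similar amounts with THZ1 in TAC, whereas with TAC alone Cdh5 fell and Pecam1 was not called.

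Since both are read from the same library, their ratio does not depend on how libraries were scaled. Sham-Veh had 1.38 ± 0.14 and Sham-THZ1 1.38 ± 0.11 Cdh5 counts per Pecam1 count (SD, n = 4). TAC-Veh had 0.971 ± 0.292 and TAC-THZ1 0.939 ± 0.097. Every TAC-THZ1 library (0.837 to 1.03) was below every sham library (1.25 to 1.54), while TAC-Veh spread from 0.669 to 1.37. The constricted hearts therefore held less Cdh5 for each Pecam1 transcript than the sham hearts, with or without the drug, apart from TAC-Veh replicate 4.

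**Figure D3:**
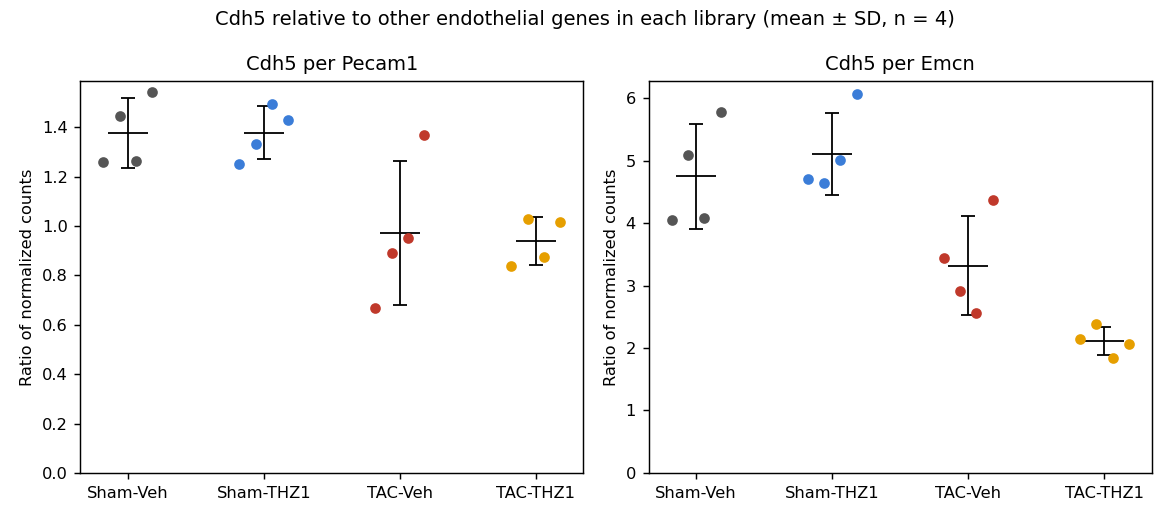
Cdh5 normalized counts divided by those of Pecam1 (left) and Emcn (right) in each library (y axes, ratio from 0), with the mean and SD of 4 libraries per group. Cdh5 per Pecam1 drops from 1.38 in both sham groups to 0.939 in TAC-THZ1, and Cdh5 per Emcn from 4.75 in Sham-Veh to 2.11 in TAC-THZ1.

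Emcn (ENSMUSG00000054690, chromosome 3, 137004031 to 137095149) encodes endomucin, a sialomucin on the surface of capillary and venous endothelium. Libraries of Sham-Veh had 1302, 1080, 1255 and 1121 normalized counts, and those of Sham-THZ1 had 1240, 1236, 1207 and 1100. TAC-Veh had 1233, 1440, 1460 and 1378, and TAC-THZ1 had 1599, 1554, 1623 and 1666. All 4 TAC-THZ1 values were above the other 12 libraries and close to each other. Emcn was higher with TAC by 0.21 (SE 0.07, adjusted p 0.0218) and higher still with THZ1 in TAC by 0.23 (SE 0.07, adjusted p 0.0238), so that Emcn and Cdh5 were the 2 genes of the 10 called in both comparisons, which share TAC-Veh. With TAC under THZ1 it was higher by 0.43 (SE 0.07, adjusted p 0.00114), a call kept in all 29 alternatives, while the drug effect in sham was 0.01 (95% interval -0.14 to 0.16). The first call was lost without Sham-Veh replicate 2 or 4 (adjusted p 0.0833 and 0.0683) or TAC-Veh replicate 2 or 3 (0.0591 and 0.0574), in a fit of TAC-Veh and Sham-Veh alone (0.0805) and with scaling to Pecam1 and Cdh5 (0.159), and the second without TAC-Veh replicate 1 (0.0603) or TAC-THZ1 replicate 4 (0.0595) and with array weights (0.151). Cdh5 counts per Emcn count went from 4.75 ± 0.84 in Sham-Veh and 5.11 ± 0.66 in Sham-THZ1 to 3.32 ± 0.79 in TAC-Veh and 2.11 ± 0.23 in TAC-THZ1. All TAC-THZ1 libraries lay below all others in this ratio (highest 2.38, against a lowest of 2.56 in TAC-Veh).

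Egfl7 (ENSMUSG00000026921, chromosome 2, 26435534 to 26448640) encodes a secreted matrix protein and hosts Mir126, the endothelial miR-126, on the same strand. Its Sham-Veh libraries had 2153, 2011, 2104 and 1921 normalized counts and its Sham-THZ1 libraries 2216, 2117, 2164 and 2269. TAC-Veh had 2711, 2582, 2633 and 2457, and TAC-THZ1 had 2629, 2430, 2298 and 2476. Every constricted heart was above every sham heart. The increase with TAC was 0.34 (SE 0.06, adjusted p 1.40e-04), the call among the 10 with the smallest adjusted p in that comparison, and it held in all 29 alternatives, with adjusted p-values from 1.23e-08 to 0.0106. THZ1 in TAC gave -0.08 (95% interval -0.20 to 0.04, adjusted p 0.303). TAC under THZ1 was called higher by 0.16 (SE 0.06, adjusted p 0.0428) and was lost when any of 9 libraries was left out, at adjusted p-values of 0.0538 to 0.133. Those 9 were Sham-Veh replicates 2 and 3, all 4 of Sham-THZ1, and TAC-THZ1 replicates 1, 2 and 4. Of the exon bases of Egfl7, 7.37% are shared with Gm20532 and 2.04% with Mir126, both on the same strand.

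Vwf (ENSMUSG00000001930, chromosome 6, 125496792 to 125636697), the platelet-tethering glycoprotein, varied more among constricted than among sham hearts. It had 972, 1222, 1049 and 1003 normalized counts in Sham-Veh, 1193, 1441, 1223 and 1185 in Sham-THZ1, 2022, 1459, 860 and 1595 in TAC-Veh, and 1505, 1108, 1613 and 678 in TAC-THZ1. The coefficient of variation was 10.5% and 9.62% in the sham groups against 32.4% in vehicle-treated and 34.7% in drug-treated constricted hearts. No comparison called Vwf, and its difference of 0.42 with TAC had a 95% interval from -0.09 to 0.94 (adjusted p 0.168), which was called without TAC-Veh replicate 3 (0.66, adjusted p 0.0209) but was 0.25 (adjusted p 0.42) without TAC-Veh replicate 1. With THZ1 in TAC the value was -0.29 (adjusted p 0.396), and it ranged from -0.53 without TAC-Veh replicate 3 to -0.029 without TAC-THZ1 replicate 4, with -0.12 without TAC-Veh replicate 1. Platelets and megakaryocytes also hold Vwf and Pecam1. The summed level of 6 of their markers ranged over 232 to 320 normalized counts in Sham-Veh, 254 to 338 in Sham-THZ1, 336 to 438 in TAC-Veh and 393 to 647 in TAC-THZ1, and its part in these values was not tested.

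Eng (ENSMUSG00000026814, chromosome 2, 32502115 to 32538189) encodes endoglin. Sham-Veh had 3687, 3687, 3668 and 4097 normalized counts and Sham-THZ1 had 5557, 5398, 4900 and 5321. TAC-Veh had 4659, 3371, 3312 and 3943, and TAC-THZ1 had 3784, 3498, 4431 and 3155. The 4 Sham-THZ1 libraries were above the other 12. The drug effect in sham was 0.48 (95% interval 0.26 to 0.71, p 3.02e-04 from limma before adjustment, adjusted p 0.204), a mean 1.40 times that of Sham-Veh. It was called in a fit of the sham groups alone (adjusted p 8.73e-05), with array weights (3.99e-04), by DESeq2 (0.0131) and without TAC-Veh replicate 1 (0.043). In TAC the drug effect was -0.04 (95% interval -0.26 to 0.19), and the interaction was -0.52 (SE 0.15, adjusted p 0.0386). TAC under THZ1 was lower by -0.52 (SE 0.11, adjusted p 0.00356), whereas TAC in vehicle gave 0.0013 (95% interval -0.22 to 0.23). The interaction was lost without any of 10 libraries, at adjusted p-values of 0.05 to 0.0781, and kept without Sham-Veh replicate 4, Sham-THZ1 replicate 3, TAC-Veh replicate 1, 2 or 3 or TAC-THZ1 replicate 3. It was also lost with no filter on low counts (0.0503) and with the replicate block (0.0525). Eng shares 124 exon bases, 3.2% of its exons, with Ak1 on the same strand, an abundant gene at a mean of 12297 normalized counts, so that reads there are uncertain.

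Nos3 (ENSMUSG00000028978, chromosome 5, 23870628 to 23890292), the endothelial nitric oxide synthase, was after Egfl7 the steadiest of the 10 in Sham-THZ1, with a coefficient of variation of 3.05%. Its libraries had 939, 838, 860 and 927 normalized counts in Sham-Veh, 943, 888, 942 and 949 in Sham-THZ1, 1367, 944, 804 and 979 in TAC-Veh, and 953, 763, 875 and 827 in TAC-THZ1. TAC-Veh replicate 1 was the highest library, and groups overlapped in every comparison. Nos3 was not called anywhere. THZ1 in TAC gave -0.24 (95% interval -0.48 to 0.01, adjusted p 0.136), which was called without TAC-Veh replicate 3 (adjusted p 0.022), as was TAC in vehicle (0.17, adjusted p 0.0445 without it). Without TAC-Veh replicate 1 these values were -0.089 (adjusted p 0.43) and 0.025 (adjusted p 0.828). Across the 16 libraries the log2 values of Nos3 and Pecam1 had a Pearson r of 0.88 (0.72 over 15 libraries without TAC-Veh replicate 1), given as a description, since libraries of a group share their condition.

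Of the 10 genes, Fabp4 and Gpihbp1, which act in capillary fatty acid transport, were not called in any comparison. Fabp4 (ENSMUSG00000062515, chromosome 3, 10204347 to 10208576) had 18179, 19022, 15810 and 16672 normalized counts in Sham-Veh, 17894, 17800, 17331 and 19191 in Sham-THZ1, 33666, 16678, 22035 and 14346 in TAC-Veh, and 18742, 19307, 12327 and 18218 in TAC-THZ1. Gpihbp1 (ENSMUSG00000022579, chromosome 15, 75427088 to 75428642) had 1349, 1340, 1265 and 1345 in Sham-Veh, 1565, 1427, 1401 and 1546 in Sham-THZ1, 3973, 1235, 1478 and 1127 in TAC-Veh, and 1517, 1612, 1032 and 1324 in TAC-THZ1. Both were highest in TAC-Veh replicate 1 and lowest in TAC-THZ1 replicate 3. Their log2 values had a Pearson r of 0.93 across the 16 libraries, the highest of the 45 pairs among the 10 genes, and 0.85 over the 15 libraries without TAC-Veh replicate 1. Fabp4 differed by 0.24 with TAC (95% interval -0.18 to 0.66, adjusted p 0.341) and by 0.0024 without TAC-Veh replicate 1, and its drug effect in TAC of -0.28 (adjusted p 0.299) was -0.044 without that library. For Gpihbp1 the difference was 0.35 (95% interval -0.22 to 0.92, adjusted p 0.308) and turned to -0.06 without that library, while its drug effect in TAC turned from -0.32 (adjusted p 0.392) to 0.09. In sham mice all Gpihbp1 values were higher under THZ1, at a mean 1.12 times that of Sham-Veh, but the 95% interval of the log2 difference was -0.41 to 0.73 with a spread shared over all 4 groups.

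Aqp1 (ENSMUSG00000004655, chromosome 6, 55286426 to 55298549), the water channel of capillary endothelium and red cells, had 6992, 6778, 7401 and 7471 normalized counts in Sham-Veh and 7389, 7255, 6508 and 7365 in Sham-THZ1. It had 9102, 5683, 7486 and 7383 in TAC-Veh and 4720, 7790, 3383 and 7236 in TAC-THZ1. TAC-THZ1 replicates 1 and 3 were the lowest libraries, and the other two TAC-THZ1 libraries were within the sham range or just above it. No comparison called Aqp1. THZ1 in TAC gave -0.42 (95% interval -0.83 to -0.0024, adjusted p 0.12), which was called without TAC-THZ1 replicate 2 (adjusted p 0.0359), as was TAC under THZ1 (-0.38, adjusted p 0.0431 without it). Without TAC-THZ1 replicate 3 they were -0.19 (adjusted p 0.394) and -0.15 (adjusted p 0.53). The 6 red cell genes summed to 31281 and 18358 normalized counts in TAC-THZ1 replicates 1 and 3 against 7128 and 8996 in replicates 2 and 4, and over the other groups the sums were 5692 to 13465. The libraries with the least Aqp1 were thus those with the most red cell RNA. Among the other libraries TAC-Veh replicate 1 had the highest red cell sum (13465), and it also had the highest Aqp1 of all (9102). The globin genes are near-identical copies, so their single counts are uncertain, and the part of red cells in Aqp1 was not tested.

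**Figure D4:**
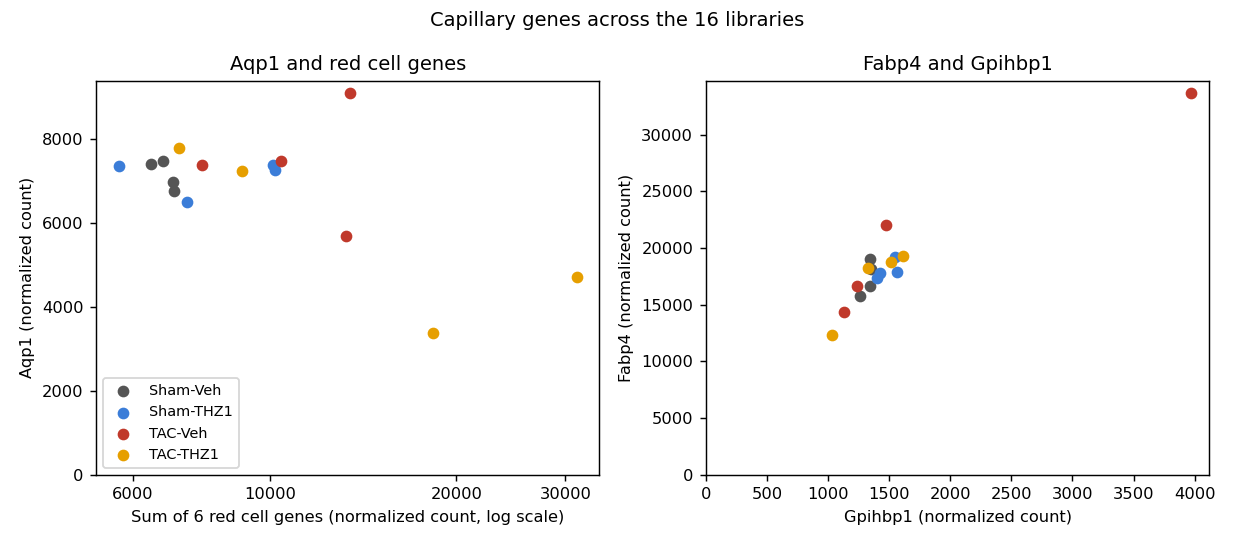
Left, Aqp1 normalized counts against the summed normalized counts of 6 red cell genes (log axis) in the 16 libraries, and right, Fabp4 against Gpihbp1, with colour for the group. The libraries with the lowest Aqp1 (3383 and 4720) have the highest red cell sums (18358 and 31281). TAC-Veh replicate 1 has the highest Aqp1 (9102) at a red cell sum of 13465. It lies apart on the right at 3973 Gpihbp1 and 33666 Fabp4 counts.

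The 10 genes did not move as a block. Of their 45 pairs, 14 had a negative Pearson r across the 16 libraries, from -0.87 for Cdh5 and Emcn (-0.91 over 15 libraries without TAC-Veh replicate 1) to 0.93 for Fabp4 and Gpihbp1. Within groups, after the group means were removed, the median r of the pairs was 0.09 and 16 were negative. These values describe libraries that share conditions and scaling. The genes outside the 10 whose log2 values followed their mean z-score most closely over the 16 libraries were Adarb1 (r = 0.94), Trpv4 (0.93), Ucp2 (0.92), Gcnt2 (0.91), Eltd1 (0.91), Rbp7 (0.90), Esam (0.90) and Klhl26 (0.89), out of 10307 genes whose mean reached 100 normalized counts. By deviations from the group means they were Crtc2 (0.95), Esam (0.95), Serinc3 (0.94), Rbm39 (0.94), Adarb1 (0.93), Bnip3 (0.92), Trp53inp1 (0.92) and Map3k6 (0.91). Esam, an endothelial adhesion molecule, and Adarb1, an RNA editing enzyme, were in both groups of 8. The r values of both groups include TAC-Veh replicate 1, the highest TAC-Veh library for 8 of the 10 genes. They were not computed without it, so how far they rest on that library is not known.

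Other endothelial genes were read in the same fit. They were 60 genes in 5 lists (pan-endothelial, endothelial transcription factors, capillary, arterial, and venous with endocardial), of which 59 passed the filter. With TAC 8 were called higher and 8 lower, which is 27.1% against 45% of all genes. With THZ1 in TAC 0 were higher and 11 lower, or 18.6% against 29.4%, and in sham 0 were called. TAC under THZ1 gave 1 higher and 19 lower, or 33.9% against 24.2%, and the interaction 0 and 6, or 10.2% against 10%. No set test was run on these lists.

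Among 19 other pan-endothelial genes, 1 was higher and 1 lower with TAC, and 5 were lower with THZ1 in TAC. Clec14a, a C-type lectin of endothelium, rose with TAC by 0.40 (adjusted p 0.00422) and the VEGF receptor Kdr fell by -0.39 (adjusted p 0.0167). The receptor phosphatase Ptprb, which acts at Cdh5 junctions, fell with THZ1 in TAC by -0.53 (adjusted p 0.00292), and the tight junction claudin Cldn5 fell by -0.53 (adjusted p 0.0451). Cldn5 went from 461 ± 78.0 normalized counts in Sham-THZ1 to 212 ± 33.6 in TAC-THZ1 (SD, n = 4), a log2 fold change of -1.12 (adjusted p 0.00146), and Cd93 changed by -0.54 (adjusted p 0.00659). The interaction was -1.14 for Cldn5 (adjusted p 0.0169) and -0.49 for Clec14a (adjusted p 0.0376). The list had 7 genes lower and 0 higher with TAC under THZ1, against 12.8% of all genes lower and 11.4% higher. In that comparison Cdh5 and Eng were lower as well, whereas Emcn and Egfl7 were higher.

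The 11 endothelial transcription factors had 2 genes called with TAC and 2 with THZ1 in TAC, all of them lower. The hypoxia factor Epas1 fell with TAC by -0.57 (adjusted p 8.71e-04) and Sox7 by -0.75 (adjusted p 0.00425). The ETS factors Erg (-0.39, adjusted p 0.00571) and Ets1 (-0.28, adjusted p 0.0342) fell with THZ1 in TAC. Fli1, also an ETS factor, was not called with THZ1 in TAC (-0.021, adjusted p 0.845) or with TAC under THZ1 (0.0059, adjusted p 0.961). Erg stood at 544 ± 53.6 normalized counts in TAC-THZ1 (SD, n = 4 in each group), against 718 ± 104 for TAC-Veh, 723 ± 39.2 for Sham-THZ1 and 713 ± 23.6 for Sham-Veh, so its level was close in 3 groups and lower in the fourth. With TAC under THZ1 3 of the 11 were lower, among them Epas1 at -0.75 (adjusted p 8.73e-04) and Erg at -0.41 (adjusted p 0.00627).

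Of 10 other capillary genes, 1 was higher and 4 lower with TAC, and 0 were called with THZ1 in TAC. The glycerol channel Aqp7 fell with TAC by -0.98 (adjusted p 0.00299) and the carbonic anhydrase Car4 by -0.82 (adjusted p 0.0374), while Ly6c1, whose count is uncertain beside near-identical Ly6 genes, rose by 0.60 (adjusted p 0.0161). The same channel and Car4 were lower with TAC under THZ1 by -1.28 and -0.90 (adjusted p 0.00207 and 0.0421). Cd36 was lower with TAC by -0.45 (adjusted p 0.00602) and with TAC under THZ1 by -0.39 (adjusted p 0.0267). The list median was -0.34 with TAC and -0.46 with TAC under THZ1, whereas the capillary genes Fabp4, Gpihbp1 and Aqp1 described above were not called.

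The 10 arterial genes had 3 higher and 0 lower with TAC and 0 higher and 3 lower with THZ1 in TAC. Fbln5, an elastic fibre protein that fibroblasts also make, went from 537 ± 3.64 to 1276 ± 381 with TAC and was at 562 ± 71.4 in TAC-THZ1 (normalized counts, SD, n = 4). Its changes were 1.20 (adjusted p 1.63e-05) and -1.14 (adjusted p 1.36e-04), and Unc5b, a netrin receptor, fell with THZ1 in TAC by -0.64 (adjusted p 0.0139). With TAC Stmn2 rose by 0.82 (adjusted p 1.38e-04), and Gja5 and Sema3g were lower with TAC under THZ1 by -0.70 and -0.63 (adjusted p 0.0048 and 0.00236). For the interaction 3 of the 10 were lower, among them Fbln5 at -1.32 (adjusted p 0.00304) and Stmn2 at -0.65 (adjusted p 0.0389).

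Of 9 venous and endocardial genes tested, 3 were higher and 1 lower with TAC, and 1 was lower with THZ1 in TAC. The natriuretic peptide clearance receptor Npr3 rose with TAC by 0.69 (adjusted p 6.70e-04) and Plvap, a protein of endothelial fenestrae, by 0.88 (adjusted p 0.0132), while Cgnl1 fell by -0.39 (adjusted p 0.0023). Cytl1 fell with THZ1 in TAC by -0.53 (adjusted p 0.0484). With TAC under THZ1 Npr3 was higher by 0.40 (adjusted p 0.0416), and Cgnl1 and Ephb4 were lower by -0.53 and -0.49 (adjusted p 0.00141 and 0.00204). Bmp6 had an interaction of -0.51 (adjusted p 0.0392).

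**Figure D5:**
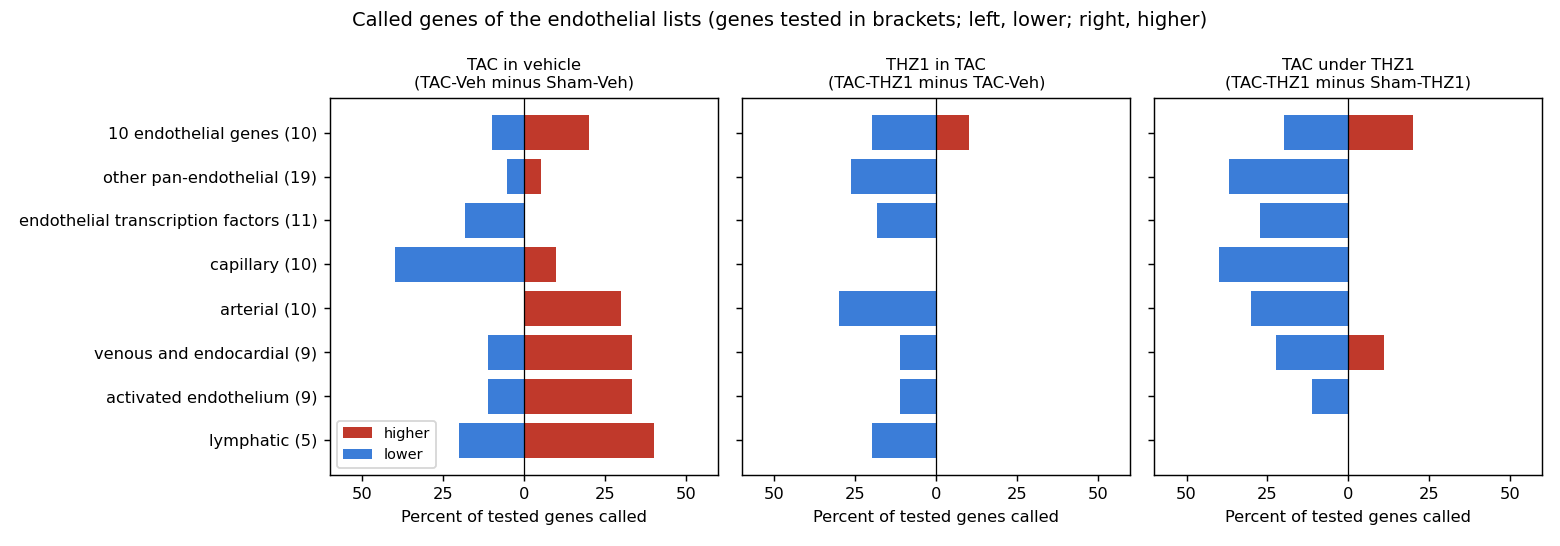
Percent of the tested genes of each endothelial list (x axis, lower to the left and higher to the right of 0) that were called in 3 comparisons, with the number tested in brackets. With THZ1 in TAC the lists hold lower calls or none, apart from the 10 endothelial genes, whose 1 higher call is Emcn.

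Genes of activated endothelium were read in the same fit. The adhesion molecule Icam1 rose with TAC by 0.79 (adjusted p 0.0194) and the peptide Apln fell by -1.32 (adjusted p 4.04e-04). Vcam1 (0.40, adjusted p 0.22) and Sele (0.16, adjusted p 0.695), adhesion molecules of the same list, were not called with TAC. Apln was also lower with TAC under THZ1 by -0.98 (adjusted p 0.00996), and Edn1, the vasoconstrictor endothelin, had an interaction of -0.83 (adjusted p 0.0383).

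A ventricle piece holds many cell types, so that fewer endothelial cells and less RNA per endothelial cell cannot be told apart in these libraries. Markers of other cells moved in the same comparisons. The 7 fibroblast markers summed to 26833 to 29762 normalized counts in Sham-Veh, 26059 to 28568 in Sham-THZ1, 51523 to 91604 in TAC-Veh and 27895 to 39367 in TAC-THZ1, of which TAC called 5 of 7 higher and THZ1 in TAC called 5 of 7 lower. The 7 cardiomyocyte markers summed to 1336800 to 1437651, 1366116 to 1425327, 707283 to 1037442 and 1166920 to 1448259 in the same order, with 4 called lower with TAC and 5 higher with THZ1 in TAC. Pericyte and smooth muscle markers (7 genes) had sums of 32318 to 34296 in sham hearts and 21069 to 29763 in constricted hearts, of which TAC called 4 lower and 1 higher, and THZ1 in TAC called 1 lower and 2 higher. Macrophage markers (7 genes) were at 5065 to 6368 in sham hearts and at 5542 to 10617 in constricted hearts, with 5 higher with TAC and 0 called with THZ1 in TAC. Their part in the values of the 10 endothelial genes was not tested.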

How the data were processed

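RNA-seq of 16 mouse ventricle pieces was analysed, with 4 mice per group and groups taken from the sample titles. The authors aligned reads to mm9 with TopHat2 2.1.1, counted them per GENCODE gene with htseq-count in reverse-stranded mode, and deposited a signal table of counts divided by DESeq2 size factors. Dividing by each library's smallest step gave whole reads, within 0.001 of a step, for 100% of values. The 22372 identifiers were matched to GENCODE on NCBIM37, and promoters came from RefSeq (GRCm38.p6).

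The main test was limma 3.58.1 (R 4.3.3) on log2(normalized count + 1) of 13331 genes, with 1 mean per group, eBayes with trend and Benjamini-Hochberg adjustment within each of 5 contrasts. P-values measure the spread between mice, pooled for each gene over all groups. The groups did not spread equally. Apart from Emcn and Egfl7, each of the 10 genes varied more in TAC-Veh than in Sham-Veh (Pecam1: coefficient of variation 21.5% and 4.52%). The pooled spread can thus be too wide for sham comparisons and too narrow where TAC-Veh is compared. Fits of the groups alone moved the adjusted p of Eng in sham from 0.204 to 8.73e-05. For Pecam1 with THZ1 in TAC it moved from 0.0128 to 0.0912. Alternatives covered pseudocounts of 0.5 and 10, filters, scalings, weights, a replicate block, thresholds, each library left out, edgeR 4.0.16 and DESeq2 1.42.0 on recovered reads. The script was tested on simulated data. The 10 genes and all lists were chosen with earlier results of these data known. Genes named from other lists were at most the 2 called genes with the largest change in each direction per comparison (mean of at least 20 normalized counts). Fli1, Lyve1, Flt4, Vcam1 and Sele, which were not called, were added beside the called genes of their lists. Cd36 was added as a further called gene of the capillary list. For the activated endothelium list no counts are given, and 1 of its genes is not reported here. The labels gave no batch. A count of 0 in a library allows up to 3 reads, for counting error only.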

Additional observations from a re-analysis of the deposited data

Results flagged for a closer look

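With 4 libraries per group, 40 groups of values of the 10 genes were examined for a library far from its neighbours, and 7 had one, where chance gives about 1 in 20. In Sham-Veh, replicate 3 was low for Gpihbp1 (1265 normalized counts) and replicate 4 was high for Eng (4097). In Sham-THZ1, replicate 2 was high for Vwf (1441) and low for Nos3 (888), and replicate 3 was low for Aqp1 (6508). TAC-Veh replicate 1 was high for Gpihbp1 (3973), and TAC-THZ1 replicate 3 was low for Fabp4 (12327). The group values reported include these libraries unless a value is given without 1 of them.

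By the interaction in limma, the drug effect differed between constricted and sham hearts for Pecam1 (-0.52, adjusted p 0.0447) and for Eng (-0.52, adjusted p 0.0386). For Pecam1 the drug effect was -0.40 in TAC and 0.12 in sham, and for Eng it was -0.04 in TAC and 0.48 in sham. The Pecam1 call was lost when any of 12 single libraries was left out, and the Eng call when any of 10 was. With no filter on low counts both were lost (0.0577 and 0.0503). Cdh5 (-0.53, adjusted p 0.0549) and Vwf (-0.54, adjusted p 0.333) had interactions of similar size that were not called.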

How the results depend on the processing

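Over 50 log2 fold changes of the 10 genes, 725 of 800 values with a library left out and 582 of 640 under other settings kept direction and side of the threshold. Where the library left out was in neither group compared, the log2 fold change could not move and only the adjusted p could. The main calls were 3 for TAC, 3 for THZ1 in TAC, 0 for THZ1 in sham, 4 for TAC under THZ1 and 2 for the interaction, and with a library left out they ranged over 1 to 4, 2 to 4, 0 to 1, 3 to 5 and 0 to 3. Fits of the groups alone gave 1 for TAC, 0 for THZ1 in TAC and 1 in sham (the interaction uses all groups, so this was not run for it), and array weights and DESeq2 each gave 1 in sham (Eng). No filter gave 0 for the interaction. Adding a minimum absolute log2 fold change of 1 gave 0 in each comparison, and an adjusted p under 0.01 gave 1 for TAC, 0 for THZ1 in TAC and 0 for the interaction. The cause was not tested.

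Scaling libraries to Pecam1 and Cdh5 moved the median log2 fold change of all genes to 0.42 for THZ1 in TAC, 0.57 for TAC under THZ1, 0.54 for the interaction, -0.12 in sham and 0.04 for TAC. This scaling takes the same log2 value from every gene of a library. Values relative to these medians therefore cannot change, and they are no check of the direction. The calls were 1 for TAC, 3 for THZ1 in TAC (3 higher and 0 lower, against 1 and 2), 7 for TAC under THZ1 (6 higher and 1 lower, against 2 and 2) and 1 for the interaction, where 29.8%, 62.7%, 76.9% and 57.6% of all genes were called. Signs changed for THZ1 in TAC in Pecam1 (0.0034), Vwf (0.12), Egfl7 (0.32), Fabp4 (0.12), Gpihbp1 (0.080), Nos3 (0.17) and Eng (0.37). In sham they changed in Pecam1 (-0.0013), Emcn (-0.11), Egfl7 (-0.022), Fabp4 (-0.067) and Nos3 (-0.058). For TAC under THZ1 they changed in Pecam1 (0.28), Vwf (0.45), Fabp4 (0.47), Gpihbp1 (0.43), Aqp1 (0.19), Nos3 (0.44) and Eng (0.047), and for the interaction in Pecam1 (0.0047), Egfl7 (0.35), Fabp4 (0.19), Gpihbp1 (0.039), Aqp1 (0.11), Nos3 (0.22) and Eng (0.0033). Array weights turned Aqp1 to -0.012 for TAC and 0.0026 in sham, and Eng to -0.046 for TAC.

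With a library left out, 19 values that were not called changed sign. The ranges were, for TAC, -0.059 to 0.55 in Gpihbp1, -0.074 to 0.15 in Aqp1 and -0.099 to 0.065 in Eng, and for THZ1 in TAC, -0.52 to 0.088 in Gpihbp1 and -0.13 to 0.063 in Eng. They were -0.035 to 0.055 in Emcn and -0.033 to 0.036 in Aqp1 in sham, and -0.27 to 0.15 in Vwf and -0.16 to 0.056 in Fabp4 for TAC under THZ1. Same-numbered libraries of different groups had correlations of deviations from -0.43 to 0.16 (24 pairs, median 0.02). Different-numbered libraries had -0.23 to 0.31 (72 pairs, median 0.0005). These ranges overlap, and they do not decide whether the numbers pair mice. With the replicate block the calls were 4, 3, 0, 5 and 2, in the order given above.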

Other observations

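The lymphatic list was read in the same fit, and 5 of its 6 genes passed the filter. Pdpn, the membrane mucin podoplanin, rose with TAC by 1.41 (limma adjusted p 1.75e-05) and Mmrn1 by 0.71 (adjusted p 0.0183), while the transcription factor Prox1, which cardiomyocytes also express, fell by -0.99 (adjusted p 0.00159). Lyve1 (0.29, adjusted p 0.399) and Flt4 (0.22, adjusted p 0.282) were not called with TAC. Pdpn fell with THZ1 in TAC by -0.89 (adjusted p 0.00211) and had an interaction of -0.99 (adjusted p 0.025). With TAC under THZ1 and with THZ1 in sham 0 of the 5 were called. Ccl21a, a chemokine of lymphatic vessels, was at 0 reads in 12 of the 16 libraries.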
